A study of Mus musculus with 8 samples.

Results

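Fmn1, Mrap2, Tchhl1, Gm14085, Selenbp2 and its relative Selenbp1, all outside the Hvcn1 locus, were examined in hearts of HVCN1 null and WT mice. They are 6 of the 39056 genes listed in the deposited table. They had been chosen from these same hearts for expression in HVCN1 null hearts and almost none in WT hearts. Their difference between the genotypes is therefore given here as a description, and no p is printed for it. The choice held in the values for Mrap2, Tchhl1, Gm14085 and Selenbp2. Fmn1 was low rather than absent in WT hearts, and Selenbp1 was expressed alike in both genotypes, so it stands here as the relative of Selenbp2 and not as an on-off gene. RNA was taken from hearts of male mice, 3 months old, with 1 poly-A library per heart, and how much atrium each sample held is not given in the sources used here. One group carried the HVCN1 deletion (HVCN1-/-, labelled Hv1 null, n = 4, hearts 1 to 4), and the other was WT on the C57BL/6 background (n = 4, hearts 5 to 8). The paper names this background once, beside wild-type, and whether it also holds for the HVCN1-/- mice is not clear from its wording. No further allele or agent is named for either group, and whether the animals were littermates is likewise not given.

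The genes belong to unrelated families. Fmn1 encodes formin 1, one of the formins that nucleate and elongate unbranched actin filaments, and the locus is best known from limb development. Mrap2 encodes a small membrane protein that binds melanocortin and related receptors and modulates their signalling, and its best known site of action is the hypothalamus, where it takes part in energy balance. Tchhl1 encodes a trichohyalin-like protein of the S100 fused type, a family with calcium-binding EF hands at one end, whose genes lie in the epidermal differentiation complex and are typical of skin and hair follicle. Selenbp1 encodes a selenium-binding protein that oxidizes methanethiol to hydrogen sulfide, hydrogen peroxide and formaldehyde, and Selenbp2 is its close copy, known from mouse liver. Gm14085 is named Slc28a2b in RefSeq. It is a paralogue of Slc28a2, which encodes a sodium-coupled transporter of purine nucleosides.

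Sequence upstream of the start was read for all 6 genes from RefSeq promoters on GRCm38.p6, as the 250 bases before the annotated start on the plus strand. Selenbp1 and Selenbp2 are shown because their upstream sequences were nearly the same while their levels were not. Of 238 aligned bases 223 were identical (93.7%). Capitals mark the bases that were mismatched or had no partner in the alignment. The windows are chr3:94932833-94933082 for Selenbp1 and chr3:94693323-94693572 for Selenbp2.
Selenbp1: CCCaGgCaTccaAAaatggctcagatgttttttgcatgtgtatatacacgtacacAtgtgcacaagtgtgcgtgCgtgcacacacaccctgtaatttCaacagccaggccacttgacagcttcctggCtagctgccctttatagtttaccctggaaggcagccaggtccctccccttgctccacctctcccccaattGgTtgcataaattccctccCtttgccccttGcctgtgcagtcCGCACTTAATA
Selenbp2: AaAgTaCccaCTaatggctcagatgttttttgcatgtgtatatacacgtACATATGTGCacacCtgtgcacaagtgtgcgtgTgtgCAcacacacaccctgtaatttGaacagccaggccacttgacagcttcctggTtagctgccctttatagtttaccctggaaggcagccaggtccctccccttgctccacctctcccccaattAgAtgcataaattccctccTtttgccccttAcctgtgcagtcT

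Mrap2, the gene with no count in any WT heart, is shown as a promoter rich in CG (chr9:87144056-87144305, 60.0% G and C, 16 CG steps). Gm14085 is shown as its opposite (chr2:122484691-122484940, 38.4% G and C, no CG step), with capitals for its CCAAT box.
Mrap2: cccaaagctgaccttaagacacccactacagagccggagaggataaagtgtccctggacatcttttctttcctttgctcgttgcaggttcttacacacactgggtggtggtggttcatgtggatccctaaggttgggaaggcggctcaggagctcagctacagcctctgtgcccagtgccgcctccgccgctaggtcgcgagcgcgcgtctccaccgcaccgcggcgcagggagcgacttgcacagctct
Gm14085: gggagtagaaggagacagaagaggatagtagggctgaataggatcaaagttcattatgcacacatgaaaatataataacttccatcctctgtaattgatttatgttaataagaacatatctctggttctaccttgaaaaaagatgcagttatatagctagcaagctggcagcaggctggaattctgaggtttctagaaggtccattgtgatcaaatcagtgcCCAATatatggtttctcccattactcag
The motifs searched, on both strands, were the TATA box (TATAAA), the CCAAT box (CCAAT), the GC box (GGGCGG), the E-box (CACGTG) and the GATA motif (AGATAA). Selenbp1 and Selenbp2 both held a TATA box, read on the minus strand, and a CCAAT box. Fmn1 held a CCAAT box and a GC box before its upstream start and none of the motifs before its downstream start. Gm14085 held a CCAAT box, and Mrap2 and Tchhl1 held none of the 5. Among all 32851 promoters of this length, the TATA box was found in 12.4%, the CCAAT box in 33.8%, the GC box in 32.7%, the E-box in 6.02% and the GATA motif in 9.99%. No motif was found in all 6 genes.

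Total counts ran from 25851255 to 38874640 per heart. Values are CPM, counts divided by the library size, which was scaled by the TMM method of edgeR. Hvcn1, the deleted gene, had 0.180, 0.161, 0.0380 and 0.0848 CPM in HVCN1 null hearts 1 to 4 and 2.58, 1.51, 2.62 and 2.30 CPM in WT hearts 5 to 8. The heart muscle genes Myh6, Tnnt2, Tnni3, Actc1, Ryr2, Pln, Myl2 and Ttn summed to between 56443 and 70839 CPM per heart. The summed level of 7 atrial genes differed between hearts within each genotype. HVCN1 null hearts 1 to 4 summed to 337, 4695, 3768 and 354 CPM, and WT hearts 5 to 8 to 3363, 151, 8662 and 109 CPM. A gene was called when its Benjamini-Hochberg adjusted p from edgeR's quasi-likelihood test over 14796 tested genes was under 0.05, which held for 169 genes (1.14%). DESeq2 called 466, and with 1 heart left out edgeR called 99 without HVCN1 null heart 1, 103 without heart 3, 92, 71 and 104 without WT hearts 5, 6 and 8, and at most 152 without any other. An on-off gene was defined as one with at least 0.5 CPM on average in one genotype, at most 10% of that in the other, and no overlap between the groups. By that definition 32 genes (0.216%) were on in HVCN1 null hearts and off in WT hearts, 5 of them among the 6 genes described here. Of the other 27, 14 were annotated as pseudogenes. The opposite pattern was found in 2 genes (0.0135%), Hvcn1 and Cyp1a1. All 6 genes passed the filter on low counts. The 5 on-off genes were called higher in HVCN1 null hearts, against 0.743% of all tested genes, and their groups did not overlap, which held in that direction for 3.6% of tested genes and in either direction for 7.06%. This difference is what they were chosen for, so the calls and the lack of overlap are no evidence of their own.

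Mrap2 (ENSMUSG00000042761, chromosome 9, 87144306 to 87184045 in GRCm38, plus strand, 3 annotated transcripts) had no count in the 4 WT hearts and 341 counts in the 4 HVCN1 null hearts. HVCN1 null hearts 1 to 4 had 1.29, 3.99, 3.04 and 1.95 CPM. Every HVCN1 null heart expressed the gene, and heart 2 had 3.09 times the level of heart 1. The mean was 2.57 ± 1.19 CPM (SD, n = 4). With 3 counts over the WT group as the limit that a count of 0 allows (0.0215 CPM), Mrap2 was at least 119-fold higher in HVCN1 null hearts. In bulk hearts, more cells with the transcript and more transcript per cell cannot be told apart, and this applies to all 6 genes. No 50-base window of its transcripts occurred in a transcript of another gene.

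Tchhl1 (ENSMUSG00000027908, chromosome 3, 93468754 to 93471980, plus strand, 1 transcript) had 446 counts in HVCN1 null hearts and 6 in WT hearts. HVCN1 null hearts 1 to 4 had 6.03, 1.15, 3.88 and 2.83 CPM of Tchhl1. WT hearts 5 to 8 had 0.0506, 0, 0.106 and 0 CPM. The lowest HVCN1 null heart was 10.9 times above the highest WT heart. Tchhl1 was the most variable of the 6 genes among HVCN1 null hearts, with heart 1 at 5.25 times the level of heart 2. The group means were 3.47 ± 2.04 and 0.0391 ± 0.0505 CPM (SD, n = 4 each). Normalized for library size, its counts stood at a ratio of 78.2 (exact 95% limits 35.7 and 214, for counting error alone). WT heart 7 held 4 of the 6 WT counts, and without it the ratio was 171, from 2 WT counts. Tchhl1 shared no 50-base window with another gene.

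Fmn1 (ENSMUSG00000044042, chromosome 2, 113327736 to 113716767, plus strand, 9 transcripts) had 5133 counts in HVCN1 null and 311 in WT hearts. HVCN1 null hearts 1 to 4 had 43.4, 41.0, 30.9 and 37.9 CPM of Fmn1. WT hearts 5 to 8 had 2.25, 2.26, 2.62 and 1.69 CPM. WT hearts thus held a low and even level, with 50 to 99 counts per heart, and the lowest HVCN1 null heart was 11.8 times above the highest WT heart. The means were 38.3 ± 5.41 and 2.20 ± 0.384 CPM (SD, n = 4 each), a ratio of 17.4. It was also the least variable of the 6 genes among HVCN1 null hearts, the highest being 1.40 times the lowest. Of its 50-base windows, 2.30% occurred in another gene.

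Gm14085 (ENSMUSG00000079071, chromosome 2, 122484941 to 122528040, plus strand, 2 transcripts) lies 8.77 Mb from Fmn1 on the same chromosome. HVCN1 null hearts 1 to 4 had 5.07, 3.18, 4.83 and 3.28 CPM of Gm14085, and WT hearts 5 to 8 had 0.177, 0.0618, 0.159 and 0.203 CPM. The groups were far apart, the lowest HVCN1 null heart being 15.7 times above the highest WT heart. The means were 4.09 ± 0.999 and 0.150 ± 0.0615 CPM (SD, n = 4 each), a ratio of 27.3 from 531 and 21 counts. The neighbouring paralogue Slc28a2 (ENSMUSG00000027219, chromosome 2, 122426477 to 122461137) was expressed in both genotypes, at 33.5 ± 8.45 and 36.3 ± 5.04 CPM (log2 fold change -0.12 ± 0.17 SE, edgeR adjusted p = 0.899). The longest protein-coding transcripts of the pair matched at 96.1% of 3738 aligned bases. Of the 50-base windows of Gm14085, 30.3% also occurred in another gene, most often Slc28a2, so part of its reads may not have been placed with certainty. The windows are single and the reads were paired, so 30.3% does not give the share of reads concerned. How such reads were counted is not given in the sources used here.

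Selenbp2 (ENSMUSG00000068877, chromosome 3, 94693556 to 94704413, plus strand, 7 transcripts) had 1.41, 1.98, 2.51 and 2.43 CPM in HVCN1 null hearts 1 to 4. In WT hearts 5 to 8 it had 0.0759, 0.0927, 0.132 and 0.0675 CPM, from 13 counts in all. The lowest HVCN1 null heart was 10.7 times above the highest WT heart, and the means of 2.08 ± 0.504 and 0.0921 ± 0.0287 CPM (SD, n = 4 each) gave a ratio of 22.6. Selenbp1 (ENSMUSG00000068874, chromosome 3, 94933056 to 94944758, plus strand, 5 transcripts), 229 kb away, showed no such pattern. It had 62.6, 78.9, 85.7 and 92.0 CPM in HVCN1 null hearts 1 to 4 and 80.5, 80.8, 89.6 and 81.5 CPM in WT hearts 5 to 8. Its groups overlapped, with means of 79.8 ± 12.7 and 83.1 ± 4.33 CPM, and a difference in mean log2 CPM, HVCN1 null minus WT, of -0.07.

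The pair Selenbp1 and Selenbp2 was then compared within each heart, which leaves aside the scaling between libraries. Selenbp2 gave 2.20%, 2.45%, 2.84% and 2.57% of the counts of the pair in HVCN1 null hearts 1 to 4. In WT hearts 5 to 8 it gave 0.0942%, 0.115%, 0.147% and 0.0827%. Selenbp2 was a small part of the pair in every heart. The difference in share rests on the same counts for which Selenbp2 was chosen and is no separate evidence. The longest protein-coding transcripts matched at 98.5% of 1712 aligned bases, and 43.9% of the 50-base windows of Selenbp2 also occurred in another gene, chiefly Selenbp1. Reads shared between the pair could have been lost or placed on either gene. Gm14085 gave between 9.16% and 14.3% of the counts of Gm14085 and Slc28a2 in HVCN1 null hearts and between 0.149% and 0.537% in WT hearts.

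**Figure D1:**
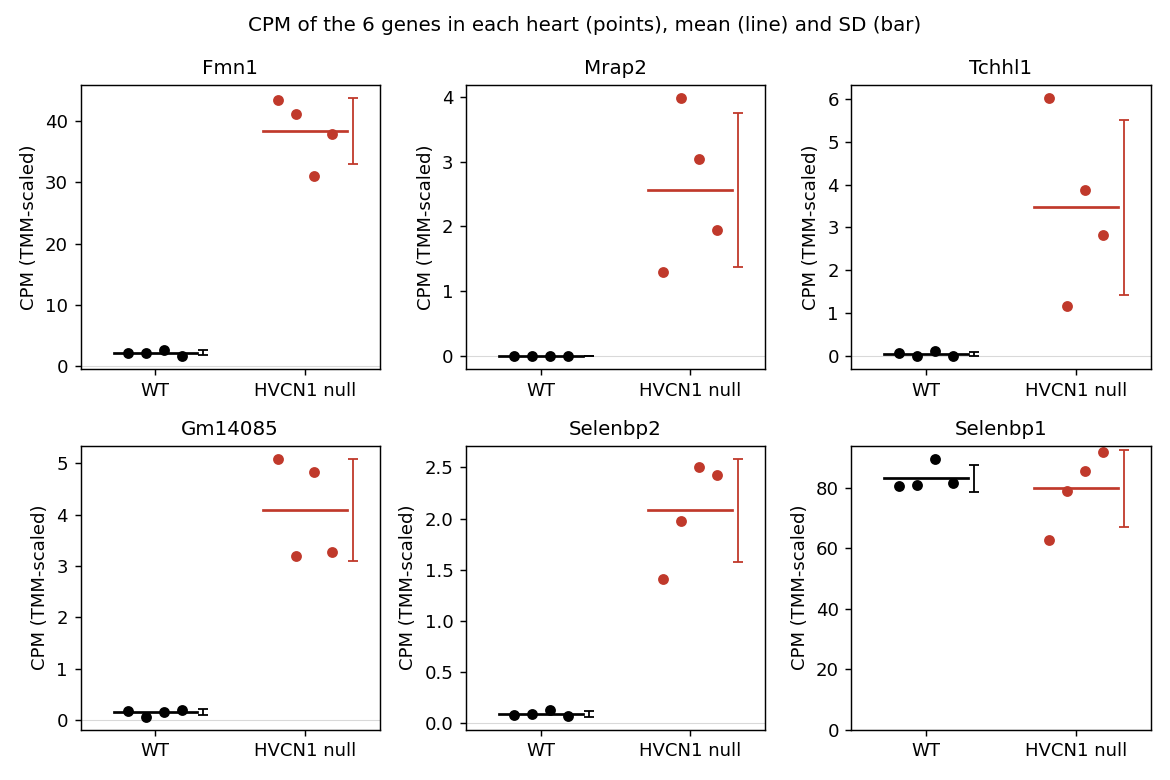
CPM of the 6 genes (vertical axes, each including 0 and scaled to the gene) in WT (black) and HVCN1 null (red) hearts. Each point is 1 heart, the line is the mean and the bar the SD of 4 hearts. The red points lie above all black points for 5 genes. For Selenbp1 the genotypes overlap, with WT hearts between 80.5 and 89.6 CPM and HVCN1 null hearts between 62.6 and 92.0 CPM.

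**Figure D2:**
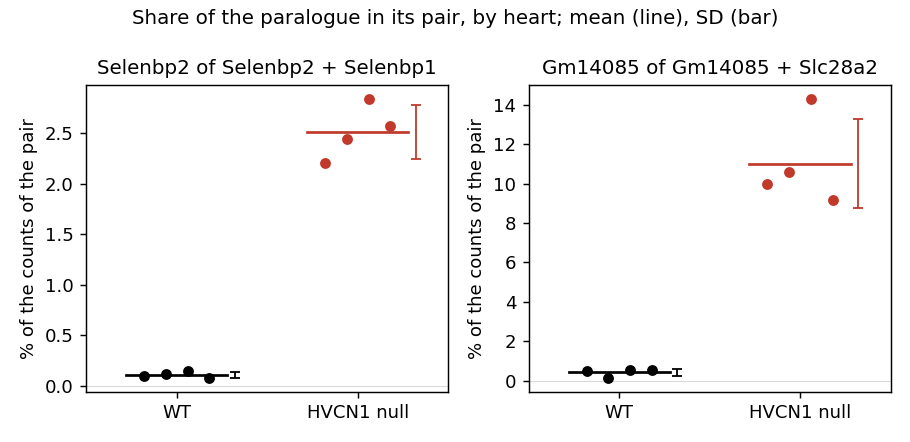
Share of Selenbp2 in the counts of Selenbp2 and Selenbp1 (left) and of Gm14085 in the counts of Gm14085 and Slc28a2 (right), in percent, by heart. Points are hearts, lines means and bars the SD of 4 hearts. WT hearts lie at or under 0.147% on the left and 0.537% on the right, and HVCN1 null hearts at or above 2.20% and 9.16%.

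To compare levels between genes, CPM was divided by the exonic length of each gene in kb. In HVCN1 null hearts this length-scaled level was 2.49 ± 0.351 for Fmn1, 1.68 ± 0.990 for Tchhl1, 1.14 ± 0.527 for Mrap2, 0.917 ± 0.222 for Selenbp2 and 0.819 ± 0.200 for Gm14085 (SD, n = 4 each). Neighbours in this order differed by less than the larger of their SDs. Selenbp1 stood apart at 35.1 ± 5.57, and at 36.6 ± 1.91 in WT hearts. Among WT hearts Fmn1 had the highest length-scaled level of the 5 on-off genes, 0.143 ± 0.0250, followed by Selenbp2 at 0.0406 ± 0.0127 and Gm14085 at 0.0300 ± 0.0123.

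The 5 on-off genes did not rank the HVCN1 null hearts alike. Heart 1 was the highest for Fmn1, Tchhl1 and Gm14085 and the lowest for Mrap2 and Selenbp2. HVCN1 null hearts 2 and 3, with the higher atrial sums, had more Mrap2 (3.99 and 3.04 CPM) than hearts 1 and 4 (1.29 and 1.95 CPM), while Tchhl1 was highest in heart 1. WT hearts 5 and 7, with atrial sums of 3363 and 8662 CPM, had no count of Mrap2. The part of the atrial sum in the spread among HVCN1 null hearts was not tested. In the hearts of low atrial sum, WT hearts 6 and 8 had no count of Mrap2 or Tchhl1, while HVCN1 null hearts 1 and 4 had 1.29 and 1.95 CPM of Mrap2 and 6.03 and 2.83 CPM of Tchhl1. For the other genes the difference in mean log2 CPM over these 4 hearts was 4.35 for Fmn1, 4.54 for Gm14085, 3.78 for Selenbp2 and -0.08 for Selenbp1. Over all hearts it was 4.09, 4.34, 3.81 and -0.07.

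Markers of other tissues in which these genes are known were summed in each heart. Of 9 keratinocyte genes, Krt5, Krt15, Ivl and Dsg3 had no count in any heart, and the list summed to between 2.64 and 3.04 CPM in HVCN1 null hearts and between 2.46 and 3.44 CPM in WT hearts. Of 8 hepatocyte genes, Alb and Fgb had no count, and the sums ran from 0.991 to 8.03 CPM in HVCN1 null and from 0.402 to 11.2 CPM in WT hearts. The 8 neuronal and neuroendocrine genes summed to between 13.7 and 18.1 CPM and between 14.8 and 18.3 CPM. Of 7 kidney tubule genes, Umod, Slc34a1 and Miox had no count, and the sums were at most 2.65 and 3.68 CPM. The 7 adipocyte genes summed to between 308 and 424 CPM in HVCN1 null and between 401 and 549 CPM in WT hearts. The 6 erythroid genes summed to between 1292 and 8391 CPM in HVCN1 null and between 3018 and 15228 CPM in WT hearts. Few of these genes passed the filter on low counts. Tested were 2 keratinocyte, 1 hepatocyte, 4 neuronal and neuroendocrine, 1 kidney tubule and 4 adipocyte genes, and all 6 erythroid genes. None of the tested marker genes was called by edgeR, against 1.14% of all tested genes, so for most of these tissues the calls say little. With p not adjusted, 2 erythroid genes and 1 heart muscle gene were under 0.05 in edgeR, and DESeq2 called 1 heart muscle gene. The part of these sums in the levels above was not tested.

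For each gene, the other tested genes with the nearest pattern over the 8 hearts were found as those with the smallest root-mean-square difference in centred log2 CPM. For Fmn1 these were Rps15a-ps7 (0.33), Gm26825 (0.34) and Gm11868 (0.37). For Selenbp2 they were Serpina3h (0.34), Rps15a-ps7 (0.35) and Mrpl48-ps (0.39), and for Gm14085 they were Gm14719 (0.34), Mrpl48-ps (0.37) and H2-Q2 (0.44). The genes nearest to Mrap2 were Hmga1b (0.50), Gm14513 (0.54) and Tpm3-rs7 (0.56). Those nearest to Tchhl1 were Tpm3-rs7 (0.79), H2-Q1 (0.79) and Gm11127 (0.82). All of these genes met the on-off definition in the same direction, and the measure holds the difference between genotypes for which the genes were chosen. Rps15a-ps7, Gm11868, Gm14513, Serpina3h, Mrpl48-ps and Gm14719 are annotated as pseudogenes and the H2 genes belong to a multigene family, so their counts are uncertain where copies share reads. Shared windows were not counted for any of the nearest genes. Whether the same holds for Hmga1b, Tpm3-rs7, Gm11127 or Gm26825 is therefore not known. Selenbp1 was nearest to Nudt3 (0.06), Wbp1 (0.07) and St6galnac6 (0.07), which differ little between hearts.

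It was next asked whether the tested genes around the 6 genes differed between the genotypes as well. The genes were chosen outside the Hvcn1 locus, and the levels of their neighbours had no part in the choice. Tchhl1, Selenbp2 and Selenbp1 lie within 1.46 Mb of each other on chromosome 3. Within 1 Mb of any of the 6 genes, 92 other genes were tested, and 2 of them (2.17%) were called, against 1.14% of all tested genes. With p not adjusted, 16 of the 92 were under 0.05 in edgeR, against 1625 of all 14796 tested genes. DESeq2 called 10 of the 92, against 466 of all tested genes. Without WT heart 6, and with only the 4 hearts of low atrial sum, edgeR called 0 neighbours. At an unadjusted p under 0.05 were 17 of 95 neighbours without WT heart 6, against 1245 of all 15075 tested genes. In the hearts of low atrial sum they were 16 of 92, against 1401 of all 14716 tested genes. Without HVCN1 null heart 1 or WT heart 5 edgeR called 1 neighbour. The median log2 fold change of the 92 was -0.02, and that of all tested genes was -0.01.

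Tchh (ENSMUSG00000052415, chromosome 3, 93442330 to 93449077), 19.7 kb before Tchhl1, was the 1 neighbour that edgeR called higher (5 by DESeq2). It encodes trichohyalin, a structural protein of the inner root sheath of the hair follicle. HVCN1 null hearts 1 to 4 had 2.40, 2.89, 1.52 and 2.06 CPM, and WT hearts 5 to 8 had 0.430, 0.464, 0.185 and 0.743 CPM, so the groups did not overlap. The means were 2.22 ± 0.576 and 0.455 ± 0.228 CPM (SD, n = 4 each) (log2 fold change 2.30 ± 0.37 SE, edgeR adjusted p = 0.0162). The call was lost without HVCN1 null heart 1, WT heart 5 or WT heart 6, and with only the hearts of low atrial sum, and over the 14 alternatives the adjusted p lay between 3.14e-07 and 0.128 and the log2 fold change between 1.90 and 2.63. Tchh shared no 50-base window with Tchhl1 or any other gene. On the other side of Tchhl1, S100a11 at 48.5 kb and S100a10 at 83.1 kb had log2 fold changes of -0.17 (adjusted p = 0.812) and -0.00 (adjusted p = 0.998), and their groups overlapped.

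A530058N18Rik (ENSMUSG00000092201, chromosome 2, 114013563 to 114068324, a processed transcript 297 kb after Fmn1) was the 1 neighbour that edgeR called lower (5 by DESeq2). It had 62.8, 54.4, 55.3 and 56.1 CPM in HVCN1 null hearts 1 to 4 and 79.5, 96.9, 84.7 and 100.3 CPM in WT hearts 5 to 8. The change (log2 fold change -0.66 ± 0.10 SE, edgeR adjusted p = 0.0118) was not called without WT heart 6 or with only the hearts of low atrial sum (over the alternatives, adjusted p between 1.29e-07 and 0.0748 and log2 fold change between -0.72 and -0.60). It lies on the strand opposite to Actc1, the cardiac actin gene, which falls within its bounds and had 6357 ± 279 CPM in HVCN1 null and 9032 ± 1260 CPM in WT hearts without overlap (log2 fold change -0.51, edgeR adjusted p = 0.105). Actc1 was called lower by DESeq2 and by edgeR with library sizes not scaled. The strand setting of the counting is not given in the sources used here, so reads of this overlapping pair may not be told apart.

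Of the genes directly beside the others, edgeR called none, and DESeq2 called Cep162. Cep162, 5.53 kb after Mrap2 on the opposite strand, had 9.68 ± 1.53 CPM in HVCN1 null and 6.63 ± 1.09 CPM in WT hearts (log2 fold change 0.55 ± 0.16 SE, edgeR adjusted p = 0.168). Cyb5r4, 66.5 kb before Mrap2, had a log2 fold change of -0.12 (adjusted p = 0.745). Ryr3 and Arhgap11a, 111 and 115 kb from Fmn1, had log2 fold changes of 0.70 and -0.13 (adjusted p = 0.868 and 0.923). Beside Gm14085, Bambi-ps1 and Gatm had log2 fold changes of -0.29 and 0.40 (adjusted p = 0.846 and 0.486). Shf, 116 kb before Gm14085, had 4.85 ± 0.482 and 3.25 ± 0.304 CPM without overlap between the groups (log2 fold change 0.57, edgeR adjusted p = 0.105), and DESeq2 called it. Spata5l1, 103 kb after Gm14085, went the other way, with 3.96 ± 0.259 CPM in HVCN1 null and 4.72 ± 0.313 CPM in WT hearts. Its groups did not overlap either (log2 fold change -0.25, edgeR adjusted p = 0.517), and DESeq2 did not call it. Duox1, an NADPH oxidase family gene 137 kb before Gm14085, had 5.52, 1.66, 2.20 and 0.933 CPM in HVCN1 null hearts and 1.21, 1.33, 0.661 and 1.18 CPM in WT hearts. Its level rested on HVCN1 null heart 1, the heart in which Gm14085 was also highest, and its groups overlapped (log2 fold change 1.23, adjusted p = 0.368). Tuft1, 34.7 kb before Selenbp2, had 2.37 ± 0.268 and 1.40 ± 0.541 CPM (log2 fold change 0.75, adjusted p = 0.291). Its groups were only just apart, with 2.13 CPM in the lowest HVCN1 null heart and 2.12 CPM in the highest WT heart. A lack of overlap in either direction was found in 7.06% of all tested genes. Pogz, after Selenbp2, had a log2 fold change of 0.17 (adjusted p = 0.529). Psmb4 and Rfx5, on either side of Selenbp1, had log2 fold changes of 0.05 and -0.10 (adjusted p = 0.946 and 0.910).

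**Figure D3:**
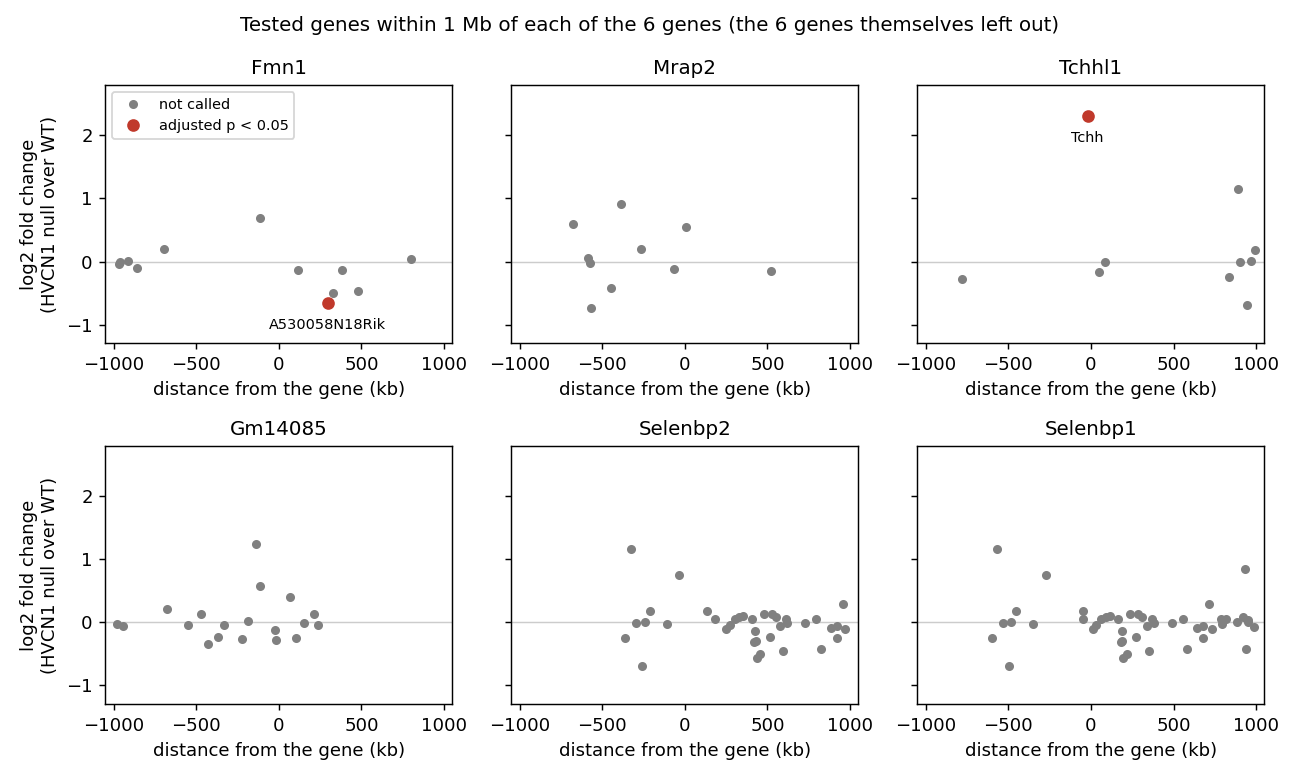
Log2 fold change, HVCN1 null over WT (vertical axis), of the tested genes within 1 Mb of each of the 6 genes, by distance from the gene in kb (horizontal axis, negative before the gene). The 6 genes themselves are left out. Red marks the 2 genes called by edgeR, Tchh at 2.30 and A530058N18Rik at -0.66, and grey the genes that were not called, most of which lie near 0.

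Relatives of the 6 genes were taken from lists of their families and pathways. Of 65 relatives, 64 were matched to the table (Pnp was not matched) and 40 were tested. Of these 40, 1 was called, against 1.14% of all tested genes. It was Tchh, the neighbour described above. The 40 had a median log2 fold change of -0.02, with 17 positive and 23 negative values. DESeq2 also called 1, against 466 of all 14796 tested genes. With p not adjusted, 1 of the 40 was under 0.05 in edgeR, against 1625 of all tested genes. At these shares the lists below are too short for the absence of a call to set them apart from other genes.

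Among 14 other formins 12 were tested and none was called by edgeR, none had an unadjusted p under 0.05 and none was called by DESeq2. Their log2 fold changes lay between -0.18 and 0.30. The formins of highest CPM were Fhod3, which organizes sarcomeric actin in heart muscle, at 302 ± 53.6 CPM in HVCN1 null and 302 ± 50.7 CPM in WT hearts, Daam1 at 77.0 ± 7.51 and 87.3 ± 9.59, Diaph1 at 42.2 ± 2.77 and 39.4 ± 1.03, and Fmnl3 at 38.6 ± 5.50 and 34.0 ± 2.64 (SD, n = 4 each).

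The receptors and ligands that work with MRAP2 were scarce in these hearts. Of 12 genes, 2 were tested. Mrap, the related accessory protein of the adrenocorticotropic hormone receptor, had 7.23 ± 0.548 CPM in HVCN1 null and 7.78 ± 1.30 CPM in WT hearts (log2 fold change -0.11, adjusted p = 0.885). The prokineticin receptor gene Prokr1 had 0.700 ± 0.232 and 0.569 ± 0.386 CPM (log2 fold change 0.29, adjusted p = 0.912). Neither was called by DESeq2, and none had an unadjusted edgeR p under 0.05. Mc4r, the melanocortin receptor of energy balance, had 1 count in HVCN1 null hearts and 0 in WT hearts, and Mc3r and Ghsr had none in any heart. The melanocortin receptors Mc1r, Mc2r and Mc5r had at most 4 counts per genotype.

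Of 21 S100 and S100-fused relatives of Tchhl1, 11 were tested and 1, Tchh, was called. The S100-fused genes Flg, Flg2, Hrnr, Rptn and Crnn had no count in any heart. The other 10 tested genes had log2 fold changes between -0.64 (S100a8) and 0.52 (S100b).

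Of 7 genes of hydrogen sulfide metabolism all were tested and none was called by edgeR or DESeq2 or had an unadjusted p under 0.05. Their log2 fold changes lay between -0.31 (Cth) and 1.08 (Cbs). Cbs had 0.929 ± 0.617 CPM in HVCN1 null and 0.428 ± 0.173 CPM in WT hearts, with overlap (edgeR adjusted p = 0.481). The genes of highest CPM were Sqor, the mitochondrial sulfide oxidoreductase, at 31.5 ± 3.56 in HVCN1 null and 32.5 ± 1.42 in WT hearts, Ethe1 at 29.0 ± 4.91 and 26.9 ± 3.69, Mpst at 27.5 ± 5.51 and 28.7 ± 2.86, and Suox at 20.5 ± 1.28 and 22.6 ± 0.348 CPM (SD, n = 4 each). The Suox groups did not overlap (log2 fold change -0.14, edgeR adjusted p = 0.582), which held in either direction for 7.06% of tested genes. Of 10 matched genes of nucleoside transport and metabolism 8 were tested and none was called by either tool or had an unadjusted p under 0.05. Beside Slc28a2, the transporter gene Slc29a1 had 69.4 ± 5.42 and 69.2 ± 8.19 CPM, the adenosine kinase gene Adk 89.3 ± 9.50 and 94.1 ± 14.7 CPM, and Nt5e, which makes adenosine outside the cell, 12.8 ± 4.63 and 12.0 ± 1.22 CPM in HVCN1 null and WT hearts.

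**Figure D4:**
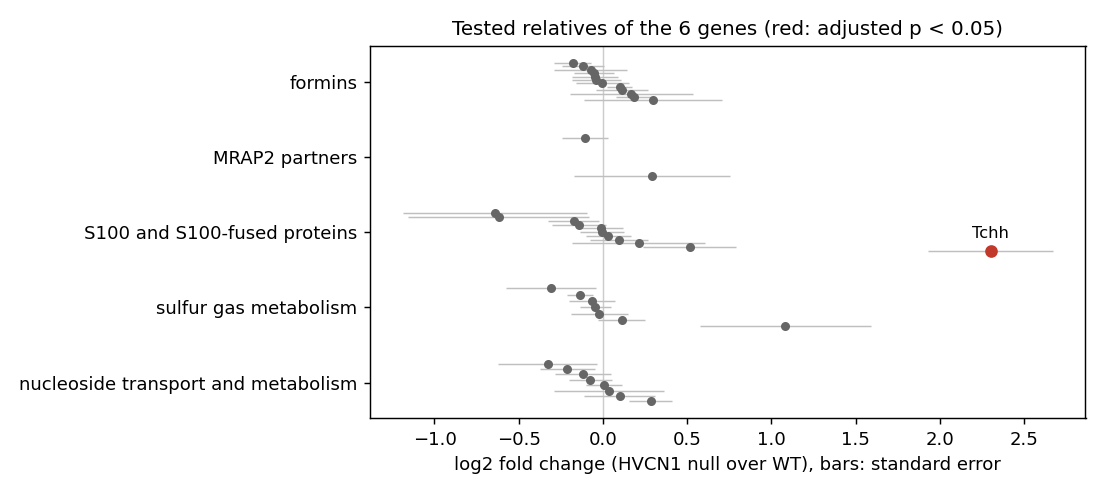
Log2 fold change, HVCN1 null over WT (horizontal axis), with its standard error, of the 40 tested relatives, by list (vertical axis). Each point is 1 gene. Tchh at 2.30 is the only called gene (red), and the other 39 (grey) lie between -0.64 and 1.08.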

How the data were processed

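Poly-A RNA of 8 hearts was sequenced. Per the paper and the submitters' processing notes, the authors aligned paired reads with STAR to mm10 (GRCm38; the paper's text names another genome), then used featureCounts on Ensembl genes, with no version, strand or multi-mapping setting given in the sources used here. The deposited values are raw counts per gene and heart. Identifiers were matched without version to GENCODE M21 on GRCm38 (38872 of 39056).

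Counts were analysed with edgeR 4.0.16 in R 4.3.3: filterByExpr, TMM scaling and the quasi-likelihood test, HVCN1 null against WT over 8 hearts, Benjamini-Hochberg adjusted. Log2 CPM used a prior count of 2. DESeq2 1.42.0 was an alternative, and the fit was tested on simulated data. Sequences were compared with Biopython 1.88, and plots used matplotlib 3.10.9. The genes, lists and tests were chosen with earlier results of these data known. Named were the 6 genes, Hvcn1, called relatives or else the up to 4 of highest CPM, called neighbours within 1 Mb and the nearest on either side, and the 3 genes of nearest pattern. Shf, Spata5l1, Duox1, S100a10, S100a8, S100b, Cbs, Cth, Actc1, Cyp1a1, the unexpressed receptors and the S100-fused genes were named after their values were seen. Intervals and limits from counts cover counting error only.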

Additional observations from a re-analysis of the deposited data

Results flagged for a closer look

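Of 39 groups of 4 hearts with unequal values, 4 had a heart set apart by Dixon's test. The gap of that heart to the nearest other, divided by the range of the group, was above the critical value at the 95% level. Chance passes this value in about 1 group in 20. Selenbp1 had 89.6 CPM in WT heart 7, with the other WT hearts between 80.5 and 81.5 CPM. Arhgap11a, beside Fmn1, had 2.06 CPM in WT heart 8, below the others at 2.35 to 2.41 CPM. Ryr3, on the other side of Fmn1, had 15.9 CPM in HVCN1 null heart 2 and 9.47 CPM in WT heart 7. These are the hearts with the highest atrial sum in their genotype, 4695 and 8662 CPM, and its part in the Ryr3 level was not tested.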

How the results depend on the processing

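The count of called genes was 169, and it was 466 with DESeq2 and between 71 and 152 with 1 heart left out, with 99 and 103 without HVCN1 null hearts 1 and 3 and 92, 71 and 104 without WT hearts 5, 6 and 8. Called relatives were 1, and between 0 and 1 with 1 heart left out, 0 without HVCN1 null heart 1, WT heart 5 or WT heart 6. Called neighbours were 2. They became 4 with library sizes not scaled, 10 with DESeq2 and 5 of 166 tested within 2 Mb. With 1 heart left out they were between 0 and 2, with 0 without WT heart 6. With only the 4 hearts of low atrial sum, an alternative chosen after seeing the data, edgeR called 71 genes, 0 relatives and 0 neighbours. At an unadjusted p under 0.05 were 2 of 39 relatives and 16 of 92 neighbours, against 1401 of all 14716 tested genes. DESeq2 was not run on these hearts. Without WT heart 6 the unadjusted p was under 0.05 for 1 of 41 relatives and 17 of 95 neighbours, against 1245 of 15075 genes. The cause was not tested. Of 72 differences in log2 CPM of the 6 genes under 12 alternatives each, 1 changed sign, Selenbp1 at 0.04 without HVCN1 null heart 1, where the groups overlap, and 67 moved by less than 1 SD. The 5 that moved more were 7.33 for Mrap2, 6.36 for Tchhl1 and 4.30 for Selenbp2 with a prior count of 0.5, and 6.11 for Tchhl1 and 4.35 for Fmn1 in the hearts of low atrial sum. Those of Mrap2 and of Tchhl1 in these hearts are set by the prior count, since the WT hearts had no count. Leaving out hearts from the ratio of Tchhl1 counts was also chosen after its values were seen. No paired analysis was possible because the sources used here name no pairs or litters of animals. The 0 counts of Mrap2 limit its fold to a lower bound.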
